A study of Mus musculus with 12 samples.

Results

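The genes described here mark endothelial cells, the cells that line blood vessels: Pecam1, Esam, Cdh5, Tie1, Tek, Kdr, Flt1, Eng, Nos3 and Egfl7. The values are CpG methylation rates from reduced representation bisulfite sequencing (RRBS) of left ventricle DNA from 12 FVB/N mouse offspring, aged 3 weeks. RRBS reads the CpG-rich fragments left by MspI, an enzyme with the target CCGG, after bisulfite has converted the unmethylated cytosines, and a rate is the percent of reads in which a cytosine was kept. Mothers of 6 offspring (3 females and 3 males) had a high-fat diet (HFD), those of the other 6 (4 females and 2 males) a regular diet (RD), and all fathers had the RD. The HFD was given to make the mothers obese, and the question was how this affects the offspring heart. Offspring were picked at random from each mother, but neither the number of mothers nor which offspring were littermates is given, so the p-values measure the spread between offspring. Library numbers were 2 to 8 for HFD and 9 to 14 for RD, so library order and diet cannot be told apart.

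A site counted when it was no more than 5 kb outside a gene or inside it (GRCm38), was measured in every one of the 12 mice and averaged 20 to 80% over them. Every one of the 10 genes had such sites, 50 in all, of 153 sites with 12 values there, and 43 of the 50 lay inside the genes. The counts were 13 in Eng, 7 in Pecam1, 6 each in Flt1 and Nos3, 5 in Tie1, 4 in Esam, 3 each in Cdh5 and Kdr, 2 in Egfl7 and 1 in Tek. A further 70 sites had a mean rate under 20% and 33 one over 80%. HFD was lower at 40 of the 70 low sites, against 42.2% of all autosomal sites under 20%, and at 12 of the 33 high sites, against 52.1% of all over 80%. The diets did not overlap at 2 of the 70, both lower in HFD (0.0461% of all such sites), and at none of the 33 (0.181%). The sites were chosen by their mean rate over all 12 mice, without the diets. At 8 of the 50 the HFD mean was under 20% and the RD mean above it, and at 1 the reverse held, so these passed the limit through 1 diet. The sites nearest to the limits were 19.5% (Egfl7, left out) and 20.2% (Nos3, kept), and 79.1% (Eng, kept) and 80.5% (Flt1, left out). The genes were picked with earlier results of these data known, among them the lower Esam methylation in HFD, so the counts over the 10 genes and their sites are descriptions and no independent support. In whole ventricle, a different share of endothelial cells and a different methylation within them cannot be told apart.

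Endothelial cells hold together through junction proteins, grow and sprout in response to vascular endothelial growth factor and angiopoietin, and release nitric oxide to relax vessels. In cell types that use a gene, CpGs around its start are commonly unmethylated, while other cell types of a tissue can carry methylation there. An intermediate rate in a mixed tissue such as the ventricle, where cardiomyocytes, endothelial cells and fibroblasts are the main types, can therefore combine cells with and without methylation. No expression was measured.

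Of the 6 genes with an entry in the RefSeq promoter table (GRCm38.p6; Tie1, Tek, Kdr, Flt1, Eng and Egfl7), Tie1 was the only one with a measured CpG inside the tabulated 300 bases, which run from 250 bases before to 50 after the start. That promoter, chr4:118489800-118490099 on the minus strand, is shown because its last CpG, 49 bases past the start, is one of the sites that separated the diets. Capitals mark each CG.
Tie1: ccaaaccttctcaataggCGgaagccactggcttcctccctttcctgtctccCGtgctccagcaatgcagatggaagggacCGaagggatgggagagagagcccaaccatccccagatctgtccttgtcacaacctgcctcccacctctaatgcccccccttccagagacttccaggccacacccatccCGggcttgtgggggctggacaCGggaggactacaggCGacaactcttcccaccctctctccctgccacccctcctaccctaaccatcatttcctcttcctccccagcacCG
It held 7 CGs, the median of 32851 tabulated promoters, and 1 CCGG, which 52.8% of them hold. The letters GGAA, the core bound by ETS factors, which are prominent in endothelial cells, occurred 9 times on either strand, and 99.4% of promoters held no more. The match of letters is a description and shows no binding. For contrast, the Flt1 promoter held 29 CGs.

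Egfl7 encodes a secreted protein of the vessel matrix and carries the endothelial microRNA miR-126 in its body. The mature forms in the RefSeq microRNA table are shown because the Egfl7 site with the largest difference lies near them. In coordinate, that site is 2265 bases lower than the nearest form, miR-126b-3p. Both miR-126b forms are on the minus strand, opposite to Egfl7. Capitals mark the seed, bases 2 to 8.
miR-126a-3p: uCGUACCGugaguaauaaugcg
miR-126b-3p: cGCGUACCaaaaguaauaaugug
miR-126b-5p: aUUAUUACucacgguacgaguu

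Averaged per gene, methylation was lower in HFD than in RD mice in 9 of the 10 genes, and Tek was the exception. The count was 7 with sites of 5 to 95%, where Flt1 and Nos3 were higher in HFD by 0.119 and 0.542 points, and 7 without RD male 1, where the same 3 genes were higher. It was 10 without RD female 1, and 9 in the other fits that left out a mouse, with Nos3 in place of Tek as the exception without HFD female 2 or HFD male 3. The median difference was -7.83 percentage points, against -0.690 over all 12683 autosomal genes with such sites, of which 58.1% had a lower HFD mean. The differences were tested with limma with diet and sex as terms, on the log2 ratio of methylated to unmethylated rate, and p-values were adjusted over all 12683 genes (Benjamini-Hochberg). Egfl7 and Esam passed an adjusted p of 0.05, both lower in HFD, where 0.071% of all genes passed (9 genes). Pecam1, Esam and Egfl7 were the 3 genes whose diets did not overlap, each lower in HFD, which was so for 0.765% of all genes (HFD higher without overlap: 0.0631%). An unadjusted p under 0.05 was reached by 5 of the 10, against 8.93% of all genes. Genes whose sites coincide were tested as 1 feature, and the 4 Esam sites are also those within 5 kb of Msantd2.

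**Figure D1:**
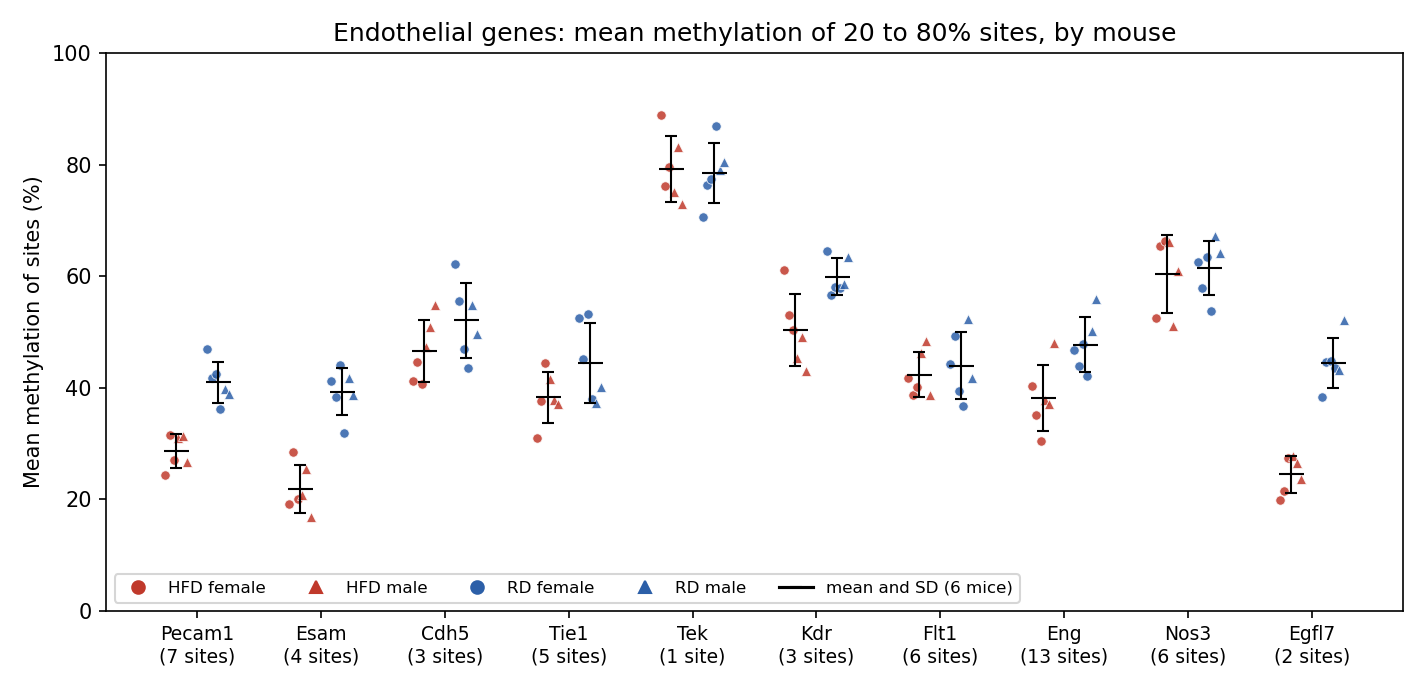
Mean methylation (y axis, percent) of the 20 to 80% sites of each endothelial gene (x axis, with the number of sites), 1 point per mouse, with the mean and SD of 6 mice per diet. HFD mice lie below all RD mice in Pecam1, Esam and Egfl7, and the diets overlap in the other 7 genes.

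**Figure D2:**
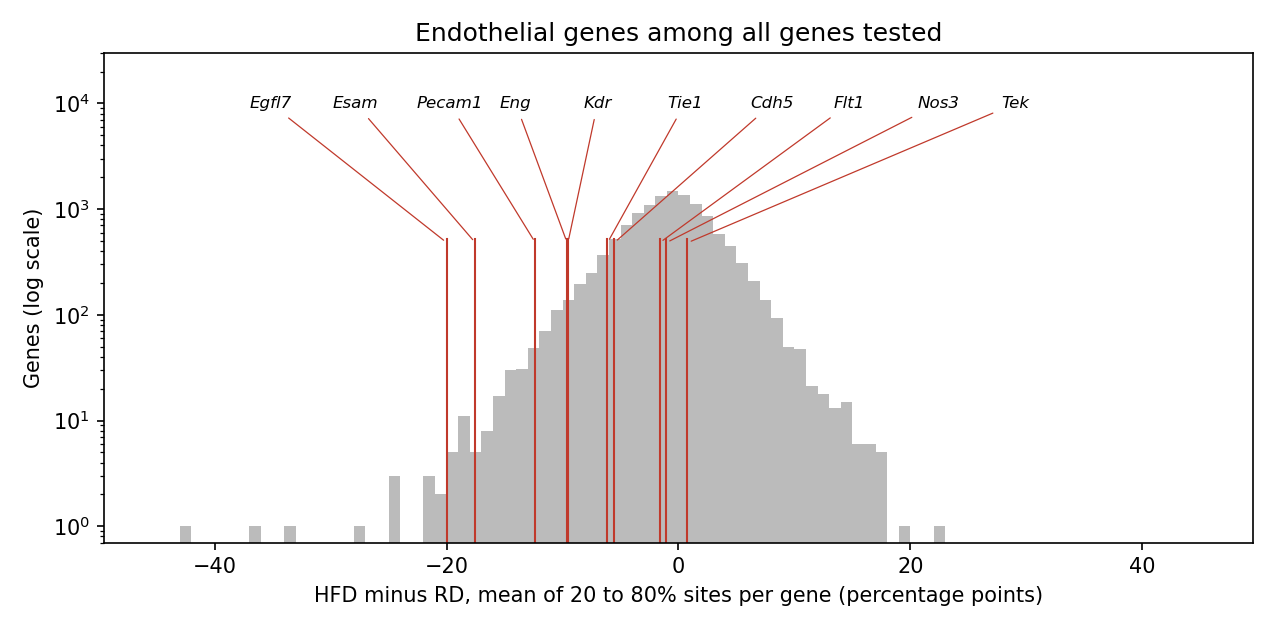
Histogram of the difference between the diet means (x axis, percentage points) over 12683 genes (y axis, log scale), with the endothelial genes as red lines. Egfl7, Esam and Pecam1 lie in the lower tail, and Flt1, Nos3 and Tek near the middle.

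The adhesion molecules that hold endothelial cells together come first. Pecam1 (CD31, chromosome 11, 106654213 to 106715281) is an immunoglobulin-family protein of endothelial cell contacts that is also on platelets and leukocytes. The mean of its 7 sites was 28.7% ± 3.01 in HFD and 40.99% ± 3.66 in RD mice (SD, n = 6 each). HFD mice ran from 24.4 to 31.6% with a median of 28.99%, and RD mice from 36.2 to 47.0% with a median of 40.7%, so the diets did not overlap. The difference of -12.3 ± 1.94 percentage points (SE) did not pass over all genes (limma adjusted p = 0.103, unadjusted p = 0.000166). It passed when only the 6669 genes with at least 3 sites were tested (limma adjusted p = 0.0338). That was the only 1 of 11 other settings in which Pecam1 passed (limma adjusted p up to 0.564). It passed in 0 of the 12 fits that left out a mouse (limma adjusted p of 0.0955 to 0.238).

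The difference in Pecam1 was uneven along the gene. At position 106715336, 55 bases beyond its higher-coordinate end, HFD mice ran from 15 to 32% with a median of 21.6%, and RD mice from 43.5 to 60.9% with a median of 56.8%. All 6 HFD mice were below all RD mice, with means of 21.9% ± 6.55 and 55.5% ± 6.12 (SD, n = 6 each). This site passed over all 60636 autosomal sites of 20 to 80% (limma adjusted p = 0.00887), where 0.0891% of sites passed (0.0874% lower and 0.00165% higher in HFD), but not without RD male 2 (adjusted p = 0.0517). At position 106715263, 18 bases inside that end, the means were 16.9% ± 8.51 and 37.2% ± 3.21 and the diets again did not overlap, with the 20% limit reached through the RD mice (limma adjusted p = 0.194). About 5.6 kb further in, 4 sites at positions 106709671 to 106709709 differed by -1.46 to -10.2 points, and of these position 106709709 separated the diets. Its 3 sites over 80% averaged 81.1% ± 4.05 in HFD and 89.4% ± 1.44 in RD mice, and their 500 bp tile did not pass (limma adjusted p = 0.128 over 23791 tiles).

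Esam (chromosome 9, 37528089 to 37538319) is an immunoglobulin-family protein of endothelial tight junctions. The mean of its 4 sites was 21.8% ± 4.30 in HFD and 39.3% ± 4.23 in RD mice (SD, n = 6 each). HFD mice ran from 16.9 to 28.4% with a median of 20.4%, and RD mice from 31.8 to 44.1% with a median of 39.9%, without overlap. The difference was -17.5 ± 2.46 percentage points (SE), with a limma adjusted p of 0.0419 over all genes. That call was lost in 10 of the 12 fits that left out 1 mouse, all but those without HFD female 3 or RD female 4, with adjusted p-values up to 0.157. It was also lost with sites of 5 to 95%, where the difference was -9.26 points (limma adjusted p = 0.156), when missing values were allowed (adjusted p = 0.181) and with trend and robust variances (adjusted p = 0.0559).

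The 4 Esam sites lie 61 to 117 bases inside the lower-coordinate end, and sites this close can share reads. The differences along them went from -23.02 points at position 37528150 through -20.7 and -15.6 to -10.7 at position 37528206. The diets overlapped only at the last of these 4. The HFD means of the last 2 were under 20%, at 15.9 and 18.3%, so these passed the limit through the RD mice. At position 37528150, HFD mice ran from 19.3 to 32.02% with a median of 24.04%, and RD mice from 37.7 to 55% with a median of 49.9%. The limma adjusted p there was 0.0476, and it stayed under 0.05 in 1 of the 12 fits that left out a mouse, the fit without RD female 4. The call was also lost among sites of 5 to 95% (limma adjusted p = 0.161) and with an offset of 0.01 (0.0676). The neighbouring site at 37528142, whose mean rate was under 20%, had 10.5% ± 2.57 in HFD and 17.7% ± 2.55 in RD mice, also without overlap. About 3.4 kb into the gene, 3 sites at 37531500 to 37531528 averaged 6.53% and 8.20%, a difference smaller than the spread between mice.

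Cdh5 encodes VE-cadherin, the cadherin of endothelial adherens junctions. The mean of its 3 sites was 46.6% ± 5.56 in HFD and 52.1% ± 6.69 in RD mice (SD, n = 6 each), and the diets overlapped (limma adjusted p = 0.631). The difference of -5.55 points was -0.346 with sites of 5 to 95% and -3.55 without RD female 1. The largest difference was -9.21 percentage points at position 104110823 of chromosome 8, 9.2 kb inside the gene, where HFD mice ran from 33.3 to 52.2% with a median of 35.2%, and RD mice from 36 to 64.3% with a median of 48.1%. Without RD female 1 it was -6.07 points. The nearby site at 104110785 had nearly the same mean in both diets (42.2% and 42.2%). None of the 12 sites measured for Cdh5 lay within 1 kb of either of its ends.

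Among the receptors, Tie1 and Tek form the angiopoietin receptor system, in which Tek binds the ligands and Tie1, which binds none of them strongly, modulates it. The mean of the 5 Tie1 sites was 38.3% ± 4.56 in HFD and 44.4% ± 7.19 in RD mice (SD, n = 6 each) (limma adjusted p = 0.684). That mean joined sites of opposite direction. At position 118489747 of chromosome 4, 102 bases past the start, HFD mice ran from 28.1 to 51.5% with a median of 40.1%, and RD mice from 51.4 to 69.6% with a median of 65.5%. Only the highest HFD and the lowest RD mouse crossed there, and the difference of -21.7 ± 4.59 percentage points (SE) did not pass over all sites (limma adjusted p = 0.193). At position 118489800, the last CpG of the promoter printed above, HFD mice ran from 20 to 32.1% with a median of 26.6%, and RD mice from 34.1 to 45.1% with a median of 37.9%. The diets did not overlap at this site, with a limma adjusted p of 0.401. In the gene body at 118484394 the HFD mean was higher by 8.81 percentage points (limma adjusted p = 0.617), and the pair of sites beyond the other end differed by -2.28 and -2.88 points.

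Tek had a single site of 20 to 80%, 119900 bases into the gene at position 94858986 of chromosome 4. Its means were 79.3% ± 5.92 in HFD and 78.5% ± 5.36 in RD mice (SD, n = 6 each), and the diets overlapped widely (limma adjusted p = 0.956 in the test over genes). The other measured Tek site, at 94859050 with a mean rate over 80%, was higher in HFD, at 89.3% ± 4.68 in HFD and 79.8% ± 5.56 in RD mice (SD, n = 6 each), with overlap between the diets. With sites of 5 to 95% the Tek difference was 5.15 points (limma adjusted p = 0.625). No site near the start of Tek was measured.

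Kdr and Flt1 encode receptors of vascular endothelial growth factor: Kdr carries its main growth signal, and Flt1 also acts as a trap for the ligand. The mean of the 3 Kdr sites was 50.3% ± 6.39 in HFD and 59.9% ± 3.31 in RD mice (SD, n = 6 each). HFD mice ran from 42.9 to 61.1% with a median of 49.7%, and RD mice from 56.6 to 64.5% with a median of 58.4%, and only HFD female 2, at 61.1%, reached the RD range. The difference of -9.54 ± 2.94 percentage points (SE) did not pass over all genes (limma adjusted p = 0.389, unadjusted p = 0.0104). It was largest at a pair of sites, positions 75944507 and 75944545 of chromosome 5, in the gene body, with -14.04 and -10.7 points. At the first of these, HFD mice ran from 44.6 to 68.5% with a median of 54.3%, and RD mice from 58.02 to 77.9% with a median of 71.5%. The 2 Kdr sites under 20%, at -729 and -783 bases from its RefSeq start and inside Gm32727, averaged 5.76% in HFD and 5.78% in RD mice.

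Flt1 held the most measured sites of the 10 genes, 59, and 38 of them had a mean rate under 20%. These averaged 2.26% ± 0.548 in HFD and 2.67% ± 0.557 in RD mice. The mean of the 6 sites of 20 to 80% was 42.3% ± 4.09 in HFD and 43.98% ± 5.98 in RD mice (SD, n = 6 each), with wide overlap (limma adjusted p = 0.878). The difference of -1.63 points turned to 0.0541 without RD male 1 and to 0.119 with sites of 5 to 95%. Of the 6 sites, 3 were lower and 3 higher in HFD. The largest difference was -9.24 percentage points at position 147722905 of chromosome 5, 3106 bases past the start, where HFD mice ran from 11.8 to 40% with a median of 29.2%, and RD mice from 21.95 to 53.1% with a median of 31.1%. Without RD male 1 it was -5.85 points.

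Eng encodes endoglin, a co-receptor for ligands of the TGF-beta and BMP family in endothelial cells. The mean of its 13 sites was 38.1% ± 5.85 in HFD and 47.7% ± 4.94 in RD mice (SD, n = 6 each). HFD mice ran from 30.5 to 48.02% with a median of 37.4%, and RD mice from 42.1 to 55.98% with a median of 47.2%, and HFD male 4 was the only HFD mouse above any RD mouse. The difference of -9.60 ± 3.13 percentage points (SE) did not pass over all genes (limma adjusted p = 0.239, unadjusted p = 0.00166).

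The 5 Eng sites 8008 to 9679 bases past its start differed by -15.2 to -30.95 points, and the other 8 by -8.89 to 8.16. The site at 32656207, with an HFD mean of 15.5% and an RD mean of 30.6%, and those at 32646802 and 32646805 near the start, with HFD means of 18.1 and 18.8%, reached the 20% limit through the RD mice. At position 32654603 of chromosome 2, HFD mice ran from 36.8 to 53.8% with a median of 42.2%, and RD mice from 58.02 to 71.1% with a median of 66.9%. The diets did not overlap, and the difference of -21.9 ± 3.49 percentage points (SE) passed over all sites (limma adjusted p = 0.0265). It stayed past the threshold in 5 of the 12 fits that left out a mouse, those without HFD male 4 or 1 of the 4 RD females, and reached an adjusted p of 0.107 in the others. The call was also lost without the sex term (limma adjusted p = 0.0624) and among sites of 5 to 95% (0.0947). The 4 sites at 32656207 to 32656274 had a large spread between mice. At position 32656274, the largest difference in Eng, HFD mice ran from 13.6 to 57.9% with a median of 40%, and RD mice from 50 to 84.6% with a median of 63.1%. The tile of these 4 sites had 26.7% ± 13.5 in HFD and 49.8% ± 8.01 in RD mice (SD, n = 6 each), without overlap but not past the threshold (limma adjusted p = 0.318 over all tiles, of which 0.0294% passed and 0.467% were lower in HFD without overlap). Around its start, 6 sites 183 to 248 bases in averaged 15.4% and 19.9% (limma adjusted p = 0.555). The 5 sites from 11072 bases onward differed by -2.78 to 8.16 points, with 3 of the 5 higher in HFD.

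Nos3 encodes endothelial nitric oxide synthase. The mean of its 6 sites was 60.4% ± 6.99 in HFD and 61.5% ± 4.84 in RD mice (SD, n = 6 each), and the diets overlapped (limma adjusted p = 0.955). The difference of -1.07 points turned to 0.542 with sites of 5 to 95%, and was 0.496 without HFD female 2, 0.807 without HFD male 3 and 0.0584 without RD male 1. Of the 6 sites, 5 lay 128 to 196 bases inside its lower-coordinate end, in a similar place to the Esam sites. Their differences ran from -5.58 to 0.0579 points at levels of 60.9 to 74.3%, and the diets overlapped at all 5. The tile of the first 4 had 69.6% ± 8.54 in HFD and 72.6% ± 3.95 in RD mice (limma adjusted p = 0.926). The sixth site, 454 bases beyond the other end at position 24384928 of chromosome 5 and inside Atg9b, had 23.2% ± 7.23 in HFD and 17.3% ± 8.62 in RD mice (SD, n = 6 each) and so reached the 20% limit through the HFD mice. It was higher in HFD by 5.93 percentage points (limma adjusted p = 0.803), and by 3.75 without RD female 2. Of the Nos3 sites under 20%, those at 24383952 and 24384004 were also higher in HFD, by 7.78 and 7.68 points, with overlap.

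Egfl7 (chromosome 2, 26581083 to 26592682) had the largest difference of the 10 genes. The mean of its 2 sites was 24.5% ± 3.28 in HFD and 44.4% ± 4.47 in RD mice (SD, n = 6 each). HFD mice ran from 19.9 to 27.7% with a median of 25.1%, and RD mice from 38.3 to 52.2% with a median of 44.02%, so the diets did not overlap. The difference was -19.97 ± 2.26 percentage points (SE), with a limma adjusted p of 0.00592 and the second smallest p-value of all 12683 genes. It stayed under 0.05 in all 12 fits that left out 1 mouse (adjusted p up to 0.0324). With sites of 5 to 95% the difference was smaller, -10.6 points, and passed (limma adjusted p = 0.00751). At position 26589098, in the gene body 2462 bases past the nearest RefSeq start, HFD mice ran from 26.9 to 38.1% with a median of 29.8%, and RD mice from 50 to 69.2% with a median of 51.7%. This site alone passed narrowly over all sites (limma adjusted p = 0.0487) and did not in any of those 12 fits (adjusted p 0.0694 to 0.159), nor among sites of 5 to 95% (0.162) or with an offset of 0.01 (0.0718). It is also the only site used for Mir126a and Mir126b, which were tested as 1 feature over genes and are not counted among the 10. That feature passed as well (limma adjusted p = 0.0299), so 1 of the 9 genes called rests on this Egfl7 site and is not independent of it.

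The second Egfl7 site, at position 26576145, lies 4938 bases before its first start, inside none of the annotated genes and just within the 5 kb limit. Its HFD mean was 17.6% and its RD mean 33.3%, so it reached the 20% limit through the RD mice. There HFD mice ran from 9.17 to 26.5% with a median of 17.3%, and RD mice from 26.6 to 37.96% with a median of 35.03%. The nearby site at 26576111 fell just under the 20% limit and separated the diets as well, with 10.8% ± 4.29 in HFD and 28.1% ± 5.08 in RD mice. In contrast, the 3 sites 603 to 628 bases past the third RefSeq start averaged 11.9% and 14.03%, and the diets overlapped (limma adjusted p = 0.867).

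**Figure D3:**
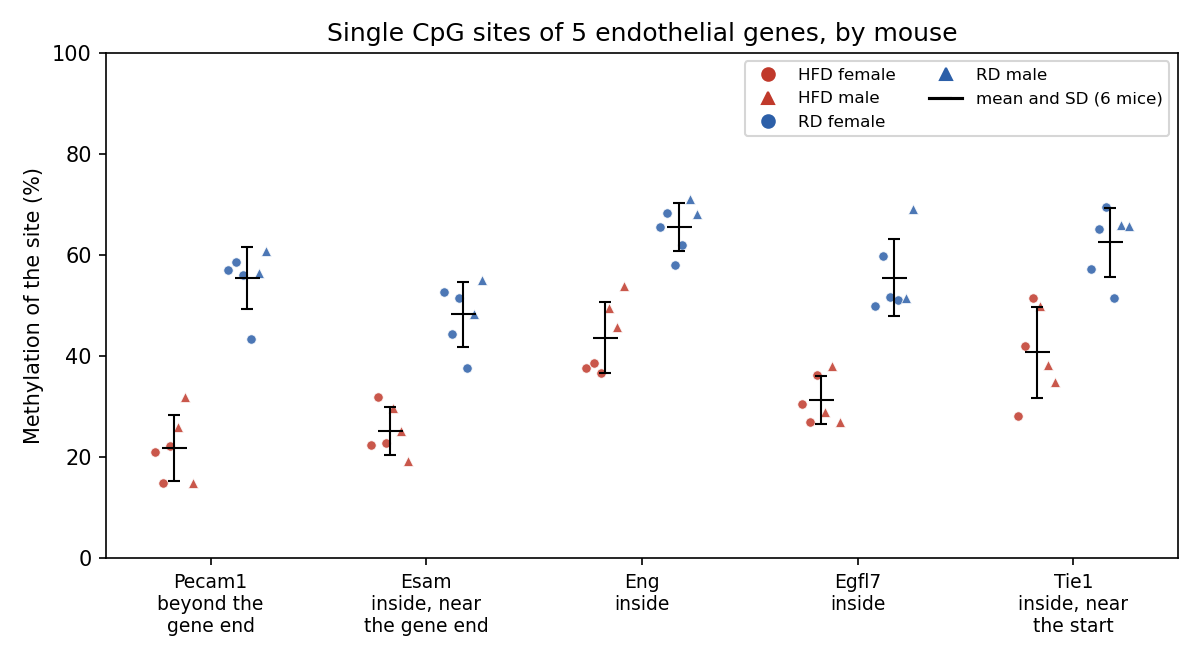
Methylation (y axis, percent) at 5 single CpG sites, 1 point per mouse, with the mean and SD of 6 mice per diet; the sites are the 4 endothelial sites past the threshold (Pecam1, Esam, Eng, Egfl7) and the Tie1 site 102 bases past its start. The diets are apart in the first 4 and touch in Tie1.

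Across the 50 sites, the HFD mean was lower at 40, against 56% of all 60636 sites. The diets did not overlap at 10 sites in 5 genes (3 in Pecam1, 3 in Esam, 2 in Egfl7 and 1 each in Tie1 and Eng), all lower in HFD, against 0.594% of all sites. Among the 41 sites with both diet means between 20 and 80% the count was 7. The other 3, in Pecam1, Esam and Egfl7, had an HFD mean under 20%. The share of all sites under that narrower limit was not taken, so the 0.594% is no comparison for the 7. No site was without overlap in the other direction, which occurred at 0.148% of all sites. An unadjusted p under 0.05 was reached by 19 sites, against 8.01% of all, and a limma adjusted p under 0.05 by 4, against 0.0891% of all, 1 each in Pecam1, Esam, Eng and Egfl7. The 10 sites are not 10 independent measurements, since neighbours in Esam and Pecam1 lie close enough to share reads. Of the 20 sites within 1 kb of an end of their gene, 6 separated the diets, and of the 30 further away, 4. Over all sites, the share lower without overlap was 0.78% within 1 kb of an end of any gene and 0.555% elsewhere. Of the 18 tiles tested in 7 of the 10 genes, none passed with limma, 4 had an unadjusted p under 0.05 (7.81% of all tiles) and the smallest adjusted p was 0.0622 (Esam). The Esam tile passed when only tiles of 20 to 80% were tested (limma adjusted p = 0.0217) and with at least 5 sites per tile (0.0243). It also passed without the sex term (0.0334), on untransformed rates (0.0245) and without HFD female 3 (0.0320) or RD female 4 (0.0369). It did not pass in the other 10 fits that left out a mouse (limma adjusted p up to 0.167), nor in 3 of 7 other settings (up to 0.586). A p above the threshold does not show that the diets did not differ.

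**Figure D4:**
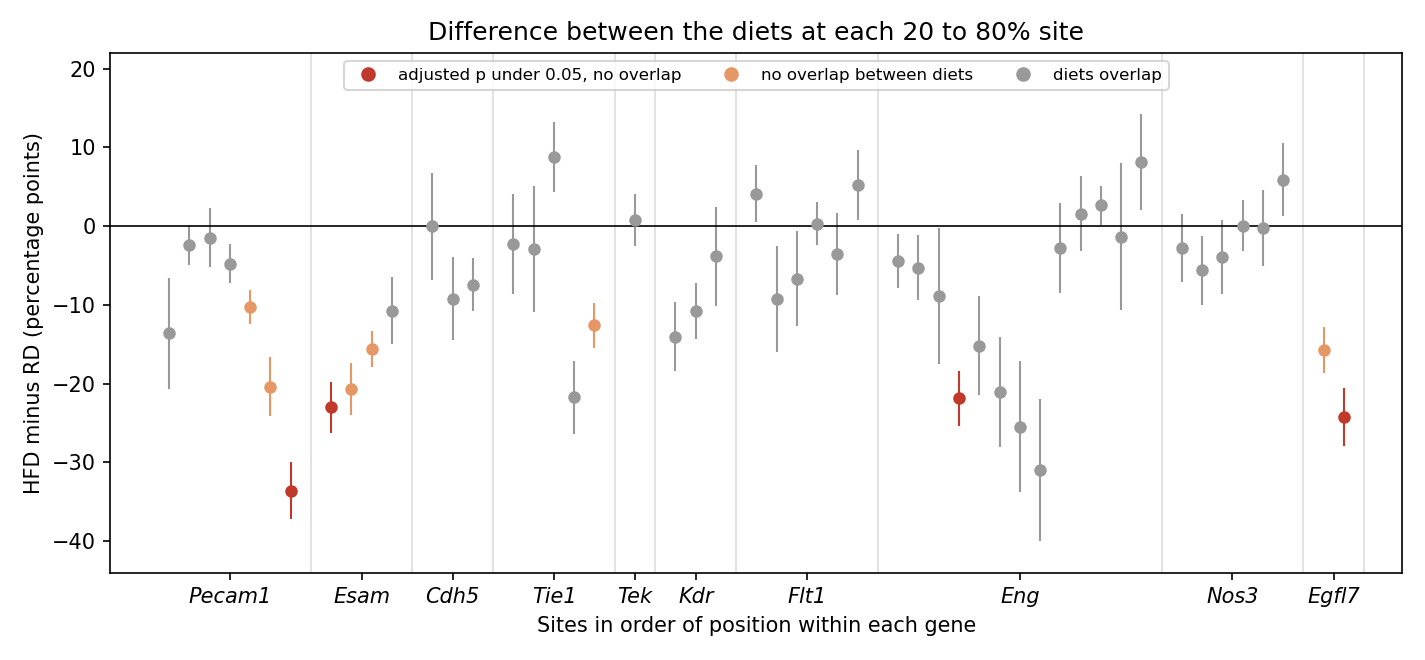
Difference between the diet means (y axis, percentage points, bars show the SE from 6 and 6 mice) at each of the 50 sites, in order of position within each gene (x axis). The 10 sites without overlap are all below 0 and lie in Pecam1, Esam, Tie1, Eng and Egfl7.

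Sex was compared next. None of the 10 genes passed for females against males (limma, smallest adjusted p = 0.926, 1 of 10 with an unadjusted p under 0.05, against 5.31% of all genes), where 0.00788% of all genes passed. That gene was Eng, where 7 females had 40.9% ± 6.22 and 5 males 45.8% ± 8.18 (SD). HFD was below RD in females in 8 of the 10 genes and in males, with only 2 RD mice, in 9. The share of all genes lower in HFD was not taken within each sex, so these counts are descriptions. The exceptions in females were Tek (81.5% in HFD and 77.8% in RD) and Nos3 (61.4% and 59.4%). In the 3 genes without overlap the direction within each sex follows from that, and their levels are given as a description. Egfl7 had 22.96% in HFD and 42.8% in RD females, and 25.98% and 47.7% in males. Esam had 22.5% and 38.8% in females, and 21.1% and 40.3% in males. Pecam1 had 27.7% and 41.8% in females, and 29.6% and 39.3% in males. Tie1 was lower in HFD females (37.6% against 47.2%) and near equal in males, the exception there (38.9% against 38.7%). The interaction of diet and sex passed for none of the 10 genes (limma, smallest adjusted p = 0.968, none with an unadjusted p under 0.05, against 4.93% of all genes) and for 0% of all genes.

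Other endothelial genes were described with the same measure, from lists also drawn up with earlier results known. For comparison, HFD was lower in 58.1% of all genes, 8.93% had an unadjusted p under 0.05 and 0.765% were lower without overlap. Of 30 endothelial transcription factors, 19 had sites, and HFD was lower in 14 of these (73.7%). The median difference was -4.12 points. None passed over all genes, 4 had an unadjusted p under 0.05, all lower in HFD, and Epas1 was the one without overlap, against 8.93 and 0.765% of all genes. Epas1, the hypoxia-inducible factor HIF-2alpha, had 41.8% ± 1.90 in HFD and 52.04% ± 2.18 in RD mice (SD, n = 6 each) over 13 sites (limma adjusted p = 0.103). Lyl1, a factor of blood and vessel development, had 29.4% ± 5.85 in HFD and 39.5% ± 6.16 in RD mice (SD, n = 6 each) (limma adjusted p = 0.281).

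Of 32 ligands, co-receptors and partners of the 10 genes, 16 had sites, HFD was lower in 13 of these (81.2%), and the median difference was -2.36 points. None passed over all genes, and 4 had an unadjusted p under 0.05, 3 of them lower, against 8.93% of all genes. Ptprb, the phosphatase that acts on Tek and VE-cadherin, had 70.4% ± 8.12 in HFD and 83.1% ± 5.89 in RD mice (SD, n = 6 each) (limma adjusted p = 0.340), so its RD mean was above the 80% limit and its HFD mean below. Nrp2, a co-receptor of vascular endothelial growth factors, had 45.6% ± 3.98 in HFD and 52.4% ± 5.61 in RD mice (SD, n = 6 each) over 17 sites (limma adjusted p = 0.431). Svep1, an extracellular matrix protein that binds Tie1, was higher in HFD at its single site, with 43.8% ± 12.2 in HFD and 26.7% ± 10.1 in RD mice (SD, n = 6 each) (limma adjusted p = 0.449).

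Of 51 other surface and junction genes, 32 had sites, HFD was lower in 25 of these (78.1%), and the median was -1.88 points. None passed over all genes, 8 had an unadjusted p under 0.05 (7 lower) and 3 were without overlap, all lower in HFD, against the same 8.93 and 0.765%. Cd93, an endothelial and myeloid surface protein, had 15.5% ± 3.96 in HFD and 28.01% ± 5.11 in RD mice (SD, n = 6 each) at 1 site (limma adjusted p = 0.0603), which reached the 20% limit through the RD mice. Ednrb, an endothelin receptor, had 46.9% ± 2.75 in HFD and 59.2% ± 5.98 in RD mice (SD, n = 6 each) over 5 sites (limma adjusted p = 0.228). The diets did not overlap in either.

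Markers of the other cell types of the ventricle were also mostly lower in HFD. Among all genes, 58.1% were lower, 8.93% had an unadjusted p under 0.05 and 0.765% were lower without overlap. Of 25 cardiomyocyte markers, 17 had sites and 15 were lower (88.2%, a larger share than in the 3 other endothelial lists, with a median of -1.44 points, none with an unadjusted p under 0.05, none without overlap). Tnni3 (cardiac troponin I, sharing its sites with Dnaaf3) had 46.2% ± 5.35 in HFD and 53.4% ± 5.60 in RD mice (SD, n = 6 each) and Nppa, the atrial natriuretic peptide gene, 50.1% ± 5.64 in HFD and 56.2% ± 6.49 in RD mice (SD, n = 6 each), with limma adjusted p-values of 0.577 and 0.694. Of 20 fibroblast markers, 14 had sites and 10 were lower (71.4%, median -1.33 points, 1 with an unadjusted p under 0.05). That gene was Ddr2, a collagen receptor, with 51.4% ± 6.90 in HFD and 60.2% ± 3.10 in RD mice (SD, n = 6 each). Wt1 and S100a4, with 1 site each, differed by -5.84 and -9.70 points (limma adjusted p = 0.473 for Ddr2, 0.638 for Wt1 and 0.707 for S100a4). Of 21 blood and mural cell markers, 13 had sites and 10 were lower (76.9%, median -1.82 points, 2 with an unadjusted p under 0.05). Those were Lyz2 and Itgam, both of myeloid cells, which, Lyz2 with an RD mean over 80%, differed by -8.44 and -4.72 points, and the haemoglobin gene Hba-a1 by 6.004 (limma adjusted p = 0.459, 0.543 and 0.588). The groups were not tested against each other, and the part of cell composition in the endothelial differences was not tested.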

How the data were processed

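The authors deposited 1 table of methylation percentages, with 1 row per cytosine position and 1 column per sample, per the file headers. The submitters' processing notes name FastQC, Trim Galore, Bismark 0.19, limma and the build mm10. Coverage minimum and strand handling are not given in the sources used here. The table lists 421177 positions, with values at 385299 to 417081 per sample. Read counts are not in it, so depth is unknown, no counting interval can be given and rates were tested. Of 39856 positions inside RefSeq promoter sequences (GRCm38.p6), 99.98% fell on a CG, on either strand.

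Rates were averaged per gene, kept as single sites (20 to 80% mean rate) or averaged in 500 bp tiles (3 or more sites, 5 to 95%), turned into log2((rate + 0.05)/(1 − rate + 0.05)) and fitted with limma 3.58.1 (R 4.3.3; diet and sex, two-sided, Benjamini-Hochberg over all features, threshold 0.05). The interaction was fitted with 1 mean per diet and sex. Alternatives are given with the closing section: leaving out each mouse, the replicate block, other sites, flanks, tiles, offsets and variance models. The fits were tested on simulated data. Named sites and tiles are those past the threshold and the largest difference per gene, and of each list the 2 smallest p-values and the 2 largest differences; further sites near these were named after their values were seen. Members and lists were chosen with earlier results of these data known. Every column matched 1 sample (0 unmatched). Figures used matplotlib 3.10.9.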

Additional observations from a re-analysis of the deposited data

Results flagged for a closer look

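RD female 4 had 43.5% methylation at the Pecam1 site at position 106715336 of chromosome 11, while the other RD mice had 56.1 to 60.9%. Its gap to the nearest of them took up an unusually large part of the range of the RD group (Dixon's 95% criterion). It was the 1 value picked out among 56 groups of values, where chance gives about 2.8, and it still lay above every HFD mouse.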

How the results depend on the processing

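The depth is unknown, so counting error could not be set apart. The planned coverage minimum could not be tried without read counts. With limma, 9 genes, 54 sites and 7 tiles differed between the diets. Leaving out each mouse gave 2 to 10 genes, 7 to 55 sites and 3 to 11 tiles. The gene count fell to 2 without HFD female 4 or RD male 2, to 3 without HFD male 3, RD female 3 or RD male 1, and to 4 without HFD female 2 or HFD male 4. The site count stayed within 1.5 times only without RD female 1 or RD female 4 (42 and 55), and the tile count moved beyond that without HFD female 2 or HFD male 3 (4), HFD female 4 or RD male 2 (3) and HFD female 3 or RD female 4 (11). Genes with at least 3 sites gave 14. For single sites, a range of 5 to 95% gave 16 and an offset of 0.01 gave 27. Tiles of 20 to 80% gave 19, at least 5 sites per tile 16, no sex term 13 and untransformed rates 17. Between the sexes 1 gene was called, with 3 at sites of 5 to 95%, 192 on all chromosomes, 0 with a 10 kb flank, at least 3 sites, an offset of 0.01 or trend and robust variances (unadjusted p under 0.05 in 782, 389, 664 and 672), and 0 to 1 when each mouse was left out. The fit on all chromosomes also held the sex chromosomes, which the other fits left out. Beyond the fewer or more features tested, the cause was not tested.

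The replicate block used the replicate numbers of the titles. Same-numbered mice did not deviate together (r of -0.0255 to 0.00999 over 4 pairs, across genes). With so few pairs this cannot show whether they shared a litter or a processing step. For diet, mice without a same-numbered mouse of their sex in the other diet added nothing, so the estimate rested on the 4 pairs. The block left 0 genes, 0 sites and 0 tiles for diet and 0 genes for sex (unadjusted p under 0.05 at 921, 4122, 1580 and 740). For diet it turned Tek to -0.419, Nos3 to 2.86 and the Nos3 tile to 1.59 points, and moved Flt1 to -0.0766, its site 147722905 to -5.84 and the Egfl7 tile to -0.319. Sites of 5 to 95% turned Flt1 to 0.119 and Nos3 to 0.542 points, and moved Egfl7 to -10.6, Esam to -9.26, Cdh5 to -0.346 and Tek to 5.15. Sites inside the gene gave -2.87 for Flt1 and -2.47 for Nos3, and allowing missing values -3.04 for Flt1. Leaving out each mouse gave -1.16 to 2.46 for Tek, -2.62 to 0.807 for Nos3, -3.08 to 0.0541 for Flt1, -4.69 to -0.862 for the Nos3 tile and -0.267 to 3.02 for the Cdh5 tile. The other 7 genes kept their direction in all settings run.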
